A study of Homo sapiens with 21 samples.

Results

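SK-N-BE(2), a human neuroblastoma line with amplified MYCN, had its transcriptome read in the 3 libraries labelled shARID1A/B.2.3, which were set against the 3 control libraries. These 6 libraries were chosen by their labels out of 21, and all 60728 gene identifiers of the deposited table were used. The control cells received a non-silencing short hairpin RNA (shRNA), and the libraries labelled shARID1A/B.2.3 are given as silenced for both ARID1A and ARID1B, which the level of ARID1A in them goes against. Every library came from cells transduced with lentiviral particles, with RNA taken 72 h later in biological triplicates, and all groups are populations of 1 cell line. The other libraries, 3 each, are labelled shARID1A.2, shARID1A.4, shARID1B.2, shARID1B.3 and shARID1A/B.4.2. The deposited values are reads scaled by a size factor for each library, and 30579746 to 35953210 reads were recovered in the 6 libraries.

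ARID1A and ARID1B are large DNA-binding subunits of the BAF complex, a form of the SWI/SNF chromatin remodelers that slides and ejects nucleosomes with the energy of ATP. A BAF complex holds 1 or the other of this pair, which are close relatives, and either can hold the complex together. In neuroblastoma a circuit of adrenergic transcription factors, with HAND2, GATA3, ISL1 and MYCN among them, keeps the cells in a sympathoadrenal state that makes catecholamines.

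ARID1A (ENSG00000117713.20, chr1:26693236-26782110 on the plus strand) hardly fell in the libraries labelled shARID1A/B.2.3. Its values were 6097, 6374 and 6463 in the control libraries and 5510.3, 5752 and 5714 in those labelled shARID1A/B.2.3, so the groups did not overlap but differed by only -0.16 on the log2 scale (SE 0.03, limma with Benjamini-Hochberg adjustment, adjusted p = 3.4e-05). ARID1B (ENSG00000049618.24, chr6:156776020-157210779 on the plus strand) fell to 44.8% of the control. It had values of 5793, 5804 and 5791 in the control and 2540.5, 2651 and 2607 in those labelled shARID1A/B.2.3, a log2 fold change of -1.16 (SE 0.02, limma, adjusted p = 6.1e-23). ARID1A thus kept 89.7% of its control level in libraries labelled as silenced for both genes. In the 3 libraries labelled shARID1A.4, whose label names ARID1A alone, both genes were low, with 2289, 2157 and 2284 for ARID1A and 3065, 3109.7 and 3126 for ARID1B. The libraries labelled shARID1A/B.4.2 resembled those labelled shARID1A/B.2.3 in this respect, with 5589, 5352 and 5379 for ARID1A and 1886, 1881 and 1955 for ARID1B. The means of ARID1A were 1920.4 and 2479 in the libraries labelled shARID1B.2 and shARID1B.3, where ARID1B had means of 5004 and 6091. In the libraries labelled shARID1A.2 the means were 2146 for ARID1A and 2241 for ARID1B, so that both were low there too. In each of the 6 conditions labelled as silenced, ARID1A or ARID1B was thus at a level that its label does not give, and whether the columns of the deposited table carry the names of the right libraries was not tested. Every comparison below is one between columns called by their labels, and what was silenced in them is open to that doubt.

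**Figure D1:**
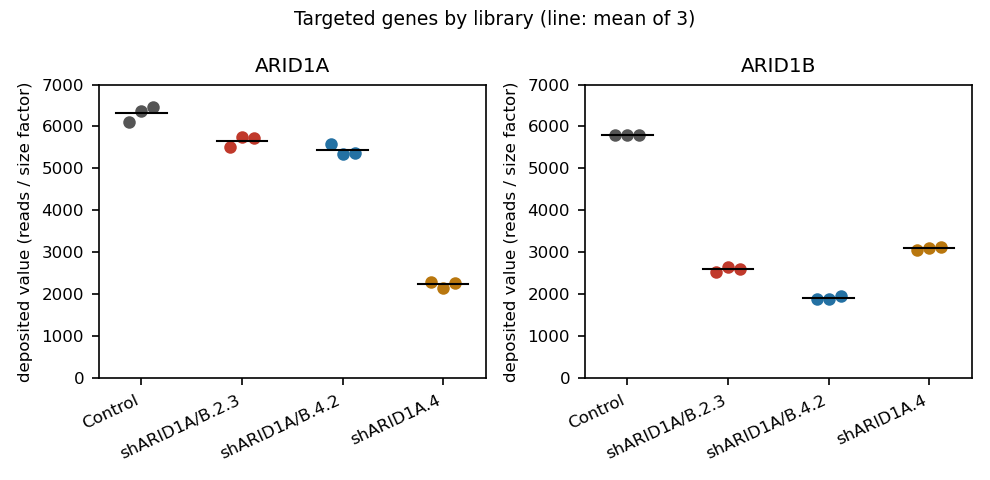
Deposited values (reads divided by the size factor of the library) of ARID1A and ARID1B in 4 conditions, with 1 point per library and a line at the mean of 3. ARID1A lies between 5510 and 5752 in the libraries labelled shARID1A/B.2.3, just under the control, whereas ARID1B lies between 2540 and 2651, well under it.

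The identity of the cells was checked on marker lists. All 9 adrenergic neuroblastoma markers were read in the 6 libraries. Their summed value was 193384 to 198254 in the control and 286521 to 293926 in the libraries labelled shARID1A/B.2.3. MYCN was the main part of it, with a mean of 122676 in the control and 218568 in those labelled shARID1A/B.2.3. Of the 9 markers, 5 rose and 4 fell. The leukocyte list summed to 448.7 to 484.8 in the control and 111.4 to 144.0 in those labelled shARID1A/B.2.3, with CD3E at 0 in all 6. PTPRC made up most of the sum in the control, and the other 5 leukocyte markers together had 49.3 to 58.6 there and 51.6 to 80.8 in the libraries labelled shARID1A/B.2.3. The sum of the endothelial list went from a range of 45.9 to 92.8 to one of 11.7 to 21.3. The Schwann cell list summed to 1234 to 1315 and 1534 to 1595, with SOX10 at 0 in all 6. The 7 fibroblast markers, which include THY1 and LUM, were well read at a summed 43146 to 43637 in the control and 21422 to 21731 in those labelled shARID1A/B.2.3, and the part of any other cell type in this was not tested. In RNA from whole cultures, fewer cells of a kind and less RNA per cell cannot be told apart.

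Of 18584 genes tested, 12862 passed the test at an adjusted p under 0.05 (69.2%), of which 6541 were higher (35.2%) and 6321 lower (34.0%). A gene is called modulated here if it passed and its log2 fold change was also over 1 in size. There were 2999 modulated genes (16.1%), 1308 higher (7.04%) and 1691 lower (9.1%), so that 56.4% of the modulated genes were lower. This share was 53.1% when libraries were scaled to their total reads, 49.2% with upper-quartile scaling, and 62.5% among the 1814 modulated genes left when 10 reads were asked of every library. Of the genes that passed, 45.8% had a log2 fold change under 0.5 in size and 30.9% one of 0.5 to 1, while 406 genes were over 2 and 79 were over 3. The shares differed between gene types, with 2180 of 14404 protein-coding genes (15.1%) and 606 of 2762 long non-coding RNA genes (21.9%) modulated. They also differed with level. Among genes with a mean of 1000 to 10000 in the 6 libraries, 148 were modulated up and 488 down, whereas among those with a mean of 10 to 100 the numbers were 560 and 499.

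The 15 largest falls and 15 largest rises were picked among modulated genes with a mean of at least 100 in the 6 libraries. Their groups also had to be free of overlap, and genes of lower level were left out. Among the 15 largest falls, HNRNPA1 had the highest level in the control (ENSG00000135486.18, chr12:54280193-54287088 on the plus strand), an abundant nuclear protein that binds RNA and takes part in splicing. Its values were 81210.2, 79297 and 81384 in the control libraries and 7118, 7027 and 7217 in those labelled shARID1A/B.2.3, which is 8.83% of the control (log2 fold change -3.50, SE 0.02, adjusted p = 1.9e-32). The spread within each group was a few percent, far smaller than the difference. The pseudogene HNRNPA1P48 fell from 1031, 939 and 1031 to 117, 76.1 and 68.1, and as it is a near copy of HNRNPA1, reads of either gene may be counted on the other. XKR5, a member of the XK-related membrane protein family, fell from 600.2, 601 and 595 to 38.5, 38.5 and 33.1 (log2 fold change -3.99). TIMP2, an inhibitor of matrix metalloproteinases, fell from 20032, 19600.5 and 20354 to 2325, 2393 and 2439 (log2 fold change -3.07, SE 0.02). MTPN, which encodes myotrophin, a partner of actin capping protein, fell from 13979, 13440.1 and 13759 to 1796, 1781 and 1661, and ANTXR1, a cell-surface receptor for collagen and for anthrax toxin, from 8316, 8329.5 and 8172 to 1056, 1172 and 1045. In these 6 genes the libraries labelled shARID1A/B.2.3 held 6.13% to 13.2% of the control level. That the groups did not overlap was a condition of the choice, and it also held in 71.1% of all genes tested.

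NEMP1, a protein of the inner nuclear membrane, fell from 6110.0, 6242 and 6128 to 787, 839 and 855 (log2 fold change -2.90). CELF2, a regulator of splicing, fell from 788, 711 and 715 to 81, 76.1 and 88.5, and RBM24, another RNA-binding protein, from 245, 222 and 193 to 26.3, 22.9 and 36. HGF, the ligand of the MET receptor, fell from 1218, 1188 and 1229 to 172, 159 and 186 (log2 fold change -2.81), and MZT1, a component of the gamma-tubulin ring complex, from 1169.8, 1139 and 1143 to 177, 180.3 and 158. ACBD7, an acyl-CoA binding protein, fell from 379, 341 and 338 to 26.3, 33.3 and 32.1. PTPRC, best known as the leukocyte phosphatase CD45, was read in the control at 399, 406 and 426 and in those labelled shARID1A/B.2.3 at 59.7, 57.3 and 63.2, whereas the summed level of the other leukocyte markers was not lower. The antisense genes TMEM108-AS1 (log2 fold change -3.40) and TMPO-AS1 (-2.85) complete the 15 largest falls, and since it is not stated whether reads were counted by strand they cannot be told apart from their sense partners.

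Of the modulated, non-overlapping genes with a mean of at least 100, INHBE, the subunit of the hormone activin E, rose most. Its values went from 9.4, 10.1 and 9.24 in the control to 276, 252 and 259.8 in the libraries labelled shARID1A/B.2.3 (log2 fold change 4.64, SE 0.34, limma, adjusted p = 9.6e-12). HMOX1, the enzyme heme oxygenase, which breaks down heme and is a classic gene of the oxidative stress response, rose from 108, 89.5 and 99.6 to 2184, 2446 and 2264 (log2 fold change 4.52, SE 0.11). CHAC1, which degrades glutathione, rose from 130.4, 99.6 and 109.9 to 2197, 2161 and 2183, and SLC7A11, the cystine carrier that feeds glutathione synthesis, from 612, 585 and 608 to 5217, 5360.1 and 5129. That the groups lay apart was a condition of the choice. In these 4 genes the 3 libraries labelled shARID1A/B.2.3 lay far above the 3 control libraries. SESN2, a stress-induced inhibitor of mTORC1, rose from 235, 224 and 239 to 1963, 1963 and 1991 (log2 fold change 3.08), and OSGIN1, an oxidative stress gene, from 29.4, 36.9 and 34.9 to 328, 352 and 351.

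The other members of the 15 largest rises have varied roles. IGF2, an insulin-like growth factor that is expressed from an imprinted locus, rose from 607, 692 and 651 to 7227, 7512 and 7623 (log2 fold change 3.52, SE 0.14), and GRB10, an adaptor that dampens insulin and IGF receptor signalling and is likewise imprinted, from 122, 124 and 98.6 to 1041, 1191 and 1085. ADM2, a peptide of the calcitonin family, rose from 72.8, 68.3 and 84.2 to 958, 894 and 920.4, and NPTX1, a secreted pentraxin of synapses, from 31.7, 42.5 and 37 to 446, 462 and 444. ULBP1, a ligand of the NKG2D receptor of natural killer cells, rose from 29.4, 25.7 and 21.6 to 401, 406 and 361. SLC6A9, a glycine transporter, rose from 54, 45.9 and 65.7 to 393, 455 and 465, and ABCA1, which exports cholesterol, from 35.2, 20.1 and 36 to 198, 217 and 219.9. NUPR1, a stress-induced nuclear protein, went from 22.3, 11.2 and 15.4 to 179, 205 and 178. ASNSP1 went from 11.8, 15.7 and 12.3 to 219.7, 202 and 173 and, as a pseudogene of ASNS, may hold reads of that gene, which itself rose by 1.75 on the log2 scale.

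**Figure D2:**
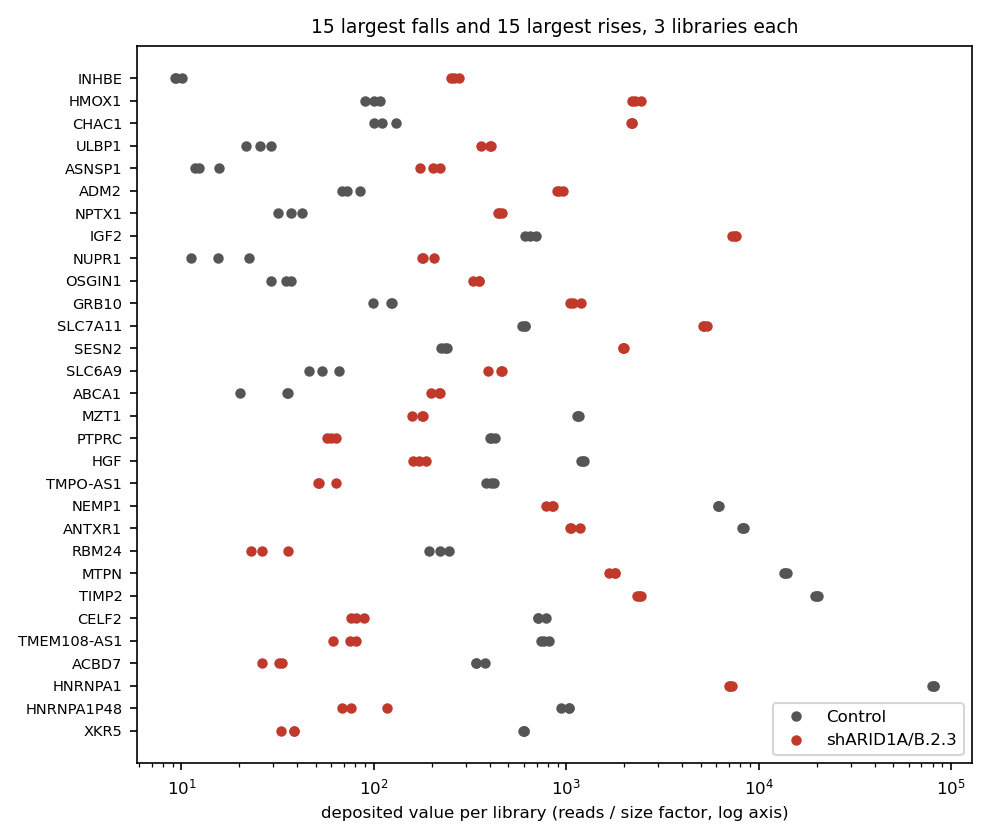
Deposited values per library (log axis) of the 15 largest falls and the 15 largest rises, with grey points for the 3 control libraries and red points for the 3 libraries labelled shARID1A/B.2.3. The genes were picked among modulated genes with a mean of at least 100 whose 2 sets of points lie apart. The control points range from 9.24 in INHBE to 81384 in HNRNPA1.

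Groups of genes were then described by lists of known function, without a test of the list itself. The medians below stand beside a median log2 fold change of 0.0144 over all genes tested, and the counts of members beside the 35.2% of all genes that rose, the 34.0% that fell and the 16.1% that were modulated.

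Genes of the integrated stress response, in which the transcription factor ATF4 switches on amino acid transport, amino acid synthesis and tRNA charging, were mostly higher in the libraries labelled shARID1A/B.2.3. Of 34 members tested 31 rose and 1 fell, against a background of 35.2% and 34.0%, and 22 were modulated, all of them upward. The median log2 fold change was 1.302. Over the 16 alternative ways to process the data the number that rose ranged from 29 to 32. ATF4 itself rose by only 0.36, from 14450.4, 14224 and 14703 to 18531, 18349.7 and 18637. The largest members beside CHAC1, NUPR1, SLC7A11 and SESN2 were GDF15, a stress-induced cytokine, which rose from 21.1, 12.3 and 8.22 to 104, 122 and 131 (log2 fold change 3.10), and ATF5, a relative of ATF4, which rose by 2.68. ASNS, asparagine synthetase, rose from 2470.1, 2388 and 2383 to 8152, 8120.3 and 8064 (log2 fold change 1.75), and the pseudokinase TRIB3 from 585, 594 and 547 to 1861, 1855 and 1886. DDIT3, which encodes the stress factor CHOP, rose from 516, 477 and 488 to 1314, 1400.5 and 1309, and PSAT1 and PHGDH of serine synthesis rose by 0.97 and 0.85. The amino acid carriers SLC7A5 and SLC7A1 rose by 2.12 and 1.80, while SLC38A2 was the 1 member that fell, by 0.92 on the log2 scale.

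The promoter of CHAC1 is shown because this gene had the largest fold change of the list. It is taken from RefSeq (GRCh38.p14, 250 bases before to 50 after the start of the gene) at chr15:40953221-40953520 on the plus strand, 5′ to 3′, with the match to TGATGCA, a core of the element that ATF4 binds, in capitals. The match is to the reverse strand and starts at position -208 from the start site.
CHAC1: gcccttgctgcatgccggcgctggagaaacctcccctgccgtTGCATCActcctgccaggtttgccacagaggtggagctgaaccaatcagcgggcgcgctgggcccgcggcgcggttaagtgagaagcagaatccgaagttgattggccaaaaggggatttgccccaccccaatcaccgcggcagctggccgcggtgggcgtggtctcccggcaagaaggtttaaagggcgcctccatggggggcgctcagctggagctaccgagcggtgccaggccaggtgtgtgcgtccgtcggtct
The motif was searched on both strands in 12031 tested genes with a promoter in the table, of which 181 (1.5%) held it. It was found in 3 of 29 promoters of the list (10.3%), in 24 of 717 promoters of modulated genes that rose (3.35%) and in 24 of 1070 of those that fell (2.24%). A match is a match of letters and not a measured site.

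Genes of DNA replication were lower without exception on their list. All 37 genes of replication licensing, the replication fork and nucleotide synthesis fell, against a background of 34.0% lower, and 26 of them were modulated. The median log2 fold change was -1.17, and the 37 falls held in each of the 16 alternatives. RFC3, a subunit of the clamp loader, fell from 3428, 3145 and 3178 to 668, 712 and 624 (log2 fold change -2.28, SE 0.04, adjusted p = 4.9e-23). TYMS, thymidylate synthase, fell from 3409.7, 3410.4 and 3359.5 to 751, 705 and 668 (log2 fold change -2.26). CDC6, which loads the MCM helicase onto origins, fell from 4156, 3977 and 4032 to 1209, 1066 and 1111, and MCM10, which activates that helicase, from 3627, 3668 and 3654 to 1212, 1133 and 1203. The sliding clamp PCNA fell by 1.32 on the log2 scale, and the helicase subunits MCM2 to MCM7 fell by between 0.84 and 1.38. RRM2, a subunit of ribonucleotide reductase, fell least, by 0.60.

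Mitotic genes moved in the same direction. All 39 kinases, kinetochore and spindle genes of the list fell, 29 of them modulated, with a median log2 fold change of -1.18. The 39 falls also held in each of the 16 alternatives. BUB1, a kinase of the spindle checkpoint, fell from 4616, 4450.2 and 4420.4 to 1435, 1349 and 1451 (log2 fold change -1.67, SE 0.03), and TTK, the checkpoint kinase also known as MPS1, from 2699, 2575 and 2585 to 874, 836 and 814. CDK1, the cyclin-dependent kinase that drives entry into mitosis, fell from 5933, 5783 and 5809 to 2012, 1954 and 2005 (log2 fold change -1.55), and PLK4, which starts the duplication of centrioles, from 2546, 2588 and 2548 to 885, 863 and 875. WEE1, an inhibitor of CDK1, fell least, by 0.23.

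In the G1 list, 13 of 16 members tested fell and 8 were modulated, all downward, with a median log2 fold change of -0.95. CCND1, cyclin D1, which is highly expressed in neuroblastoma and drives G1 with CDK4 and CDK6, fell from 39766, 39681 and 39769.6 to 13993, 14163 and 13816 (log2 fold change -1.51, SE 0.03, adjusted p = 3.5e-23). CDK2, the partner of cyclins E and A, fell from 3039.7, 2935 and 3127 to 782, 812 and 752 (log2 fold change -1.96). The E2F factors E2F8 and E2F2 fell by 1.93 and 1.49 on the log2 scale, and the retinoblastoma gene RB1 by 1.10. CDK4, CDK6 and CCNE1 did not pass the test, with log2 fold changes of 0.02, 0.09 and 0.09. The 7 CDK inhibitors went both ways. CDKN2C fell from 2296, 2271 and 2345 to 959, 1019 and 1070.3 and CDKN1C from 291, 262 and 292 to 167, 104 and 122. CDKN1A, which encodes p21, rose from 139, 135 and 164 to 247, 225 and 263 (log2 fold change 0.74, SE 0.14). CDKN2B, at 20.0, 4.48 and 21.6 in the control and 32.4, 33.3 and 22.4 in those labelled shARID1A/B.2.3, rose by 1.12, and this call was lost when control library 2 was left out (0.46) and when only the 6 libraries were fitted.

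Promoters of 4 of these genes are shown because they were among the largest falls of the replication and mitotic lists and hold a motif known from each class of gene. Capitals mark TTCCCGC or TTGGCGC, letters that E2F factors can bind, in RFC3 and CDC6. In CDK1 and PLK4 they mark TTTGAA, the letters of the cell cycle genes homology region (CHR), to which the DREAM and MuvB complexes bind. Each was searched on either strand, and here too a match is one of letters and not a measured site. All are on the plus strand of GRCh38.p14, from RefSeq, 5′ to 3′, with RFC3 at chr13:33817899-33818198, CDC6 at chr17:40287629-40287928, CDK1 at chr10:60778081-60778380 and PLK4 at chr4:127880643-127880942.
RFC3: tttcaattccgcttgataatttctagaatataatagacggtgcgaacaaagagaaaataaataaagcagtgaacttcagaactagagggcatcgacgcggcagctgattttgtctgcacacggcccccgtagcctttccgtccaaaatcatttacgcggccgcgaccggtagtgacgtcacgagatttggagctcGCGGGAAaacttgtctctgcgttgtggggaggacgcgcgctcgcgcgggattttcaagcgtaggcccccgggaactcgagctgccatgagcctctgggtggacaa
CDC6: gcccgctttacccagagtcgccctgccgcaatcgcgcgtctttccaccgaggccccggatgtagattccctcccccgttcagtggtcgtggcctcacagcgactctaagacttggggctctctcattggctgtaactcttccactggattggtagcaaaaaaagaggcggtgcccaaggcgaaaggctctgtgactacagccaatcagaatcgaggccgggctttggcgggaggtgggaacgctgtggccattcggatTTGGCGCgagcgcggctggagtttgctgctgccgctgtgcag
CDK1: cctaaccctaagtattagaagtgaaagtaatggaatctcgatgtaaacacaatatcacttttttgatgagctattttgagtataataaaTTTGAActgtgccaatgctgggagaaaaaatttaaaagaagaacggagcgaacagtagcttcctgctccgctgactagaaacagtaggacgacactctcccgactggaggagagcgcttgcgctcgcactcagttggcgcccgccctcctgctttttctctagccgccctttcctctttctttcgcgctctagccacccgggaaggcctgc
PLK4: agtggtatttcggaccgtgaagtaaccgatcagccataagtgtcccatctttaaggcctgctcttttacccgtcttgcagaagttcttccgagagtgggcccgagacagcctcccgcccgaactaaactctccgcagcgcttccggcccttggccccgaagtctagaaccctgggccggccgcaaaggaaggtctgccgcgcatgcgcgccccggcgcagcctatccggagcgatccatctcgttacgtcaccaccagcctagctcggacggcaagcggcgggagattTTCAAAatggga
The capitals start at positions -55, 9, -161 and 39 from the start site in RFC3, CDC6, CDK1 and PLK4. Over 12031 promoters of tested genes, 1704 held an E2F motif (14.2%) and 1196 a CHR motif (9.94%). An E2F motif was found in 22 of 32 promoters of the replication list (68.8%) and in 5 of 32 of the mitotic list (15.6%), and a CHR motif in 1 of 32 (3.12%) and 20 of 32 (62.5%). Among all modulated genes that fell the shares were 206 of 1070 for the E2F motif (19.3%) and 163 of 1070 for the CHR motif (15.2%), and among those that rose 74 (10.3%) and 70 (9.76%) of 717. The promoters of MCM10 and BUB1 held no match to these letters.

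Among the 29 SWI/SNF subunits tested, 8 rose (27.6%, against 35.2% of all genes) and 16 fell (55.2%, against 34.0%), and the 4 modulated (13.8%) were a share near that of all genes (16.1%). SMARCD1, an accessory subunit, fell from 5024, 4972 and 4889 to 2034, 2226 and 2083 (log2 fold change -1.23, SE 0.03). BICRAL, a subunit of the non-canonical complex, fell from 1197, 1129 and 1182 to 592, 568 and 561. BCL7A rose from 2408, 2434 and 2481 to 5575, 5601 and 5531 (log2 fold change 1.19), and SMARCD3, a paralog of SMARCD1, rose by 0.89. The ATPase SMARCA4 rose by 0.16 and its paralog SMARCA2 by 0.19, while ARID2, which marks the PBAF form, did not pass the test (-0.07). Of 34 Polycomb and trithorax regulators 11 rose and 20 fell, mostly by under 1. PHF19 of Polycomb complex PRC2 fell from 2376, 2448 and 2498 to 1003, 1020.1 and 1009.9 and the methyltransferase ASH1L from 5619, 5804 and 5592 to 2626, 2697 and 2646, whereas CBX6 rose from 2666, 2874 and 2787 to 5980.1, 6157 and 6106 and the demethylase KDM6B from 1358, 1461 and 1490.3 to 3089, 3164 and 3099.9.

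The adrenergic factors were split, with 8 of 21 higher and 12 lower (38.1% and 57.1%, against 35.2% and 34.0% of all genes) and a median of -0.12, which was -0.05 with upper-quartile scaling. MYCN, the amplified oncogene of this line, rose from 120355, 123481 and 124192 to 218173, 216229 and 221301 (log2 fold change 0.83, SE 0.03, adjusted p = 2.9e-18), and the 2 groups did not overlap. GATA2 rose by 0.51. ISL1 fell from 5926, 5935 and 5989.8 to 3104, 3152 and 3026 (log2 fold change -0.94) and DACH1 from 31.7, 47 and 37 to 20.2, 17.7 and 18.5. INSM1 was barely read, at 1.17, 3.36 and 7.19 in the control and 4.05, 0 and 0 in those labelled shARID1A/B.2.3, and its call was lost in 11 of the 15 alternatives that gave it a value.

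Of 13 genes of catecholamine handling tested, 8 rose (61.5%, against 35.2% of all genes), 1 fell and 4 did not pass the test, and 4 were modulated, all upward. TH, tyrosine hydroxylase, the first enzyme of catecholamine synthesis, rose from 714, 659 and 660.4 to 2047, 2025 and 2141 (log2 fold change 1.61, SE 0.10). DBH, which turns dopamine into noradrenaline, rose from 476, 591 and 519.7 to 1189.8, 1078 and 1126, and SLC18A1, a vesicular monoamine transporter, from 308, 345 and 312 to 959.9, 1068 and 1009. MAOA, which degrades monoamines, rose from 143, 135 and 137 to 498, 521 and 473 (log2 fold change 1.84). The second vesicular transporter SLC18A2 did not pass the test (0.21).

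Of 21 mesenchymal-state factors and markers tested, 5 rose and 15 fell, 5 of them modulated, with a median of -0.32. YAP1, the Hippo pathway coactivator, fell from 531, 547 and 516 to 128, 116 and 125 (log2 fold change -2.11), and its paralog WWTR1, also called TAZ, from 779, 758 and 819 to 235, 260.5 and 221 (log2 fold change -1.72). TWIST1 fell from 3811, 3739 and 3877 to 1705, 1443 and 1528 and the receptor AXL from 545, 499 and 473 to 221, 204 and 214. Known targets of YAP on the actin list also fell. ANKRD1 went from 1229, 1088 and 1107 to 228, 219 and 239 (log2 fold change -2.31), CCN1 from 667, 682 and 648 to 200.5, 219 and 208, CCN2 from 307, 287 and 252 to 133, 132 and 117 and AMOTL2 from 652, 563 and 669.6 to 284, 269 and 265. On that list as a whole 15 of 29 members fell (51.7%, against 34.0% of all genes) and 8 rose. The 7 fibroblast markers all fell, with THY1 from 7865, 7789 and 8015 to 2008, 1983 and 1993 (log2 fold change -1.98) and LUM, a matrix proteoglycan, from 11003, 10847 and 10849.8 to 4343, 4281 and 4168.

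Integrins, the receptors that tie cells to the matrix, were mostly lower, with 14 of 21 members tested falling, 9 of them modulated, and 3 rising (66.7% and 14.3%, against 34.0% and 35.2% of all genes), at a median of -0.83. Without the filter on low genes the median was -0.54. The collagen receptor subunit ITGA2 fell from 1411, 1314 and 1393 to 345, 311 and 350.3 (log2 fold change -2.03, SE 0.07), ITGA9 from 861, 817 and 793 to 203, 219.9 and 212 and ITGA4 from 196, 195 and 185 to 69.9, 71.9 and 49.6. ITGA5, the fibronectin receptor subunit, rose by 1.36. Of the ligands, 13 of 31 collagen genes fell and 6 rose, and 11 of 22 laminins and other matrix genes fell and 2 rose. COL6A3 fell from 2820.1, 2889.9 and 2802 to 1177, 1336 and 1321, LAMA3 from 49.3, 73.9 and 50.3 to 16.2, 12.5 and 12.7 and NID1 from 3117, 3273 and 3213 to 1794, 1945 and 1849. Of 26 lysyl oxidases and metalloproteinases 15 fell and 8 rose. LOXL2, which cross-links collagen, fell from 3879.5, 3779.7 and 3812 to 1218, 1223 and 1227 (log2 fold change -1.64), and the secreted protease ADAMTS9 from 10877, 10931 and 10849 to 3852, 4028 and 3929.8 (log2 fold change -1.47). Among 15 classical cadherins 3 rose and 5 fell, the largest rise being that of CDH7 from 17.6, 2.24 and 13.3 to 99.2, 94.8 and 86.6.

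In the list of ALK, RET, neurotrophin receptors and their ligands, 9 of 12 members tested fell (75.0%, against 34.0% of all genes) and 1 rose. ALK, a receptor kinase that is mutated in some neuroblastomas, fell from 868, 872 and 877 to 345, 314 and 321 (log2 fold change -1.42, SE 0.09), the neurotrophin receptor NGFR from 153, 170.1 and 169 to 53.7, 43.8 and 74, and GFRA2, a receptor for neurturin, from 2029.6, 2114 and 2177 to 1146, 1156 and 1080.0. NRTN, neurturin itself, rose from 20.0, 13.4 and 24.6 to 54.7, 37.5 and 53.5. Of 7 genes of the endothelin system 2 rose and 4 fell (28.6% and 57.1%, against 35.2% and 34.0% of all genes). The number that fell ranged from 1 to 5 over the 16 alternatives. The ligand EDN3 fell from 1855, 1751 and 1822 to 354, 295 and 321 (log2 fold change -2.48, SE 0.16), and ECE2, a converting enzyme of endothelins, rose from 56.4, 64.9 and 59.6 to 182, 189 and 185 (log2 fold change 1.61, SE 0.42). In the TGF-beta list 11 of 26 members rose and 12 fell (42.3% and 46.2%). The receptor TGFBR1 fell from 2618, 2428 and 2574 to 461, 445 and 413 (log2 fold change -2.53) and BMP4 from 27, 25.7 and 29.8 to 4.05, 7.29 and 7.78, whereas INHBA, which forms activin A, rose from 4.7, 10.1 and 6.16 to 51.6, 52.1 and 36. In the Notch list 9 of 14 rose (64.3%) and 5 fell (35.7%), with the ligands DLL3 (123, 146 and 139.7 to 306, 284 and 299.7) and JAG2 (78.7, 95.1 and 91.4 to 203, 179 and 193) higher and the coactivator MAML2 (2745, 2749 and 2684 to 938, 925 and 916) lower. In the WNT list 8 of 27 rose (29.6%) and 13 fell (48.1%), with the receptor FZD6 going from 667, 607 and 639 to 261, 226 and 239 and the antagonist DKK3 from 1357, 1453 and 1429.7 to 670.3, 566 and 628.

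Of 36 ion channel genes tested 20 rose (55.6%, against 35.2% of all genes) and 8 fell (22.2%, against 34.0%), at a median of 0.43, which was 0.23 without the filter on low genes. GABRB1, a subunit of GABA receptors, rose from 10.6, 13.4 and 9.24 to 97.2, 100 and 77.8 (log2 fold change 2.95), and GRIN2D, a subunit of NMDA receptors, from 11.8, 4.48 and 7.19 to 44.5, 50 and 47.7. GRIN2A was at 0, 1.12 and 0 in the control and 12.2, 14.6 and 12.7 in those labelled shARID1A/B.2.3, too low in the control for a fold. The nicotinic receptor genes CHRNA3, CHRNB4 and CHRNA7 rose by 0.88, 1.08 and 1.12. Synaptic vesicle and granule genes were split, with 13 of 28 higher and 12 lower (46.4% and 42.9%). RAB3A and SYN1, both of synaptic vesicles, rose from 357, 351 and 332 to 1070.3, 1083 and 1085 and from 224, 227 and 259.8 to 539, 535 and 485, and the granule enzyme CPE fell from 3373, 3373 and 3371 to 1503, 1373 and 1373. In the axon guidance list 12 of 35 rose (34.3%, near the 35.2% of all genes) and 16 fell (45.7%, against 34.0%). SEMA5A fell from 648, 672 and 701 to 217, 215 and 159.6 and NRP2, a receptor for class 3 semaphorins, from 2270.4, 2476 and 2418 to 965, 919 and 909.7.

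Of 27 interferon-stimulated genes and sensors tested 8 rose (29.6%) and 11 fell (40.7%), shares not far from the 35.2% and 34.0% of all genes, and 5 were modulated up and 2 down. ISG20, an exonuclease, rose from 18.8, 26.9 and 13.3 to 117, 119.8 and 102 (log2 fold change 2.51), TLR3, a sensor of double-stranded RNA, from 20.0, 28 and 26.7 to 102, 100 and 124, and IFIT2 from 101, 80.6 and 105 to 318, 265 and 281. IFITM2 fell from 159, 138 and 147 to 43.5, 61.5 and 53.5. In MHC class I presentation 5 of 15 rose and 4 fell (33.3% and 26.7%), with the transactivator NLRC5 going from 176, 187 and 178 to 606, 617 and 599 (log2 fold change 1.75) and the peptide transporter TAP2 from 1010.1, 1009.6 and 1114 to 1913, 1973 and 1925.

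Of 20 p53 target genes 3 rose and 10 fell, against 35.2% and 34.0% of all genes. GADD45A fell from 852, 844 and 798 to 328, 355 and 328 and TP53INP1 from 741, 747 and 725 to 323, 322 and 327, whereas TNFRSF10B, a death receptor for TRAIL, rose from 327, 330.2 and 386 to 766, 689 and 807. In the BCL2 family 6 of 14 rose and 5 fell (42.9% and 35.7%). BAK1, a pore former of mitochondrial apoptosis, rose from 1304, 1199 and 1154 to 2683, 2719.6 and 2753 (log2 fold change 1.16), PMAIP1, also called NOXA, from 675, 602 and 636 to 1295, 1294 and 1189, and HRK from 263, 273 and 272 to 519, 464 and 495. Cholesterol genes fell in 20 of 31 members (64.5%, against 34.0% of all genes) and rose in 6 (19.4%, against 35.2%), and the share modulated was that of all genes (16.1%). IDI1 of isoprenoid synthesis fell from 4693, 4608 and 4675 to 1417, 1318 and 1395 (log2 fold change -1.76, SE 0.03) and the sterol carrier STARD4 from 5242, 4978 and 5081 to 1839, 1754 and 1681, while the exporters ABCA1 and ABCG1 rose by 2.80 and 1.22.

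Of 71 cytosolic ribosomal protein genes 56 rose (78.9%, against 35.2% of all genes), 7 fell and 8 did not pass the test. None was modulated, the median was 0.20, and the largest was RPLP0 from 43937, 42245 and 43251 to 68434, 65581 and 68889 (log2 fold change 0.65). Of 30 replication-dependent histone genes tested 9 rose and 8 fell, against 35.2% and 34.0% of all genes. These genes are near copies of each other and their mRNAs mostly lack poly(A) tails, so that their values are uncertain. H2AC11 rose from 32.9, 23.5 and 37 to 134, 122 and 101 and H3C8 from 11.8, 6.72 and 3.08 to 31.4, 27.1 and 34.

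The libraries labelled shARID1A/B.2.3 were next set directly against the 3 libraries labelled shARID1A/B.4.2, which carry the same kind of label with other shRNA numbers. Of 18584 genes 13924 passed the test (74.9%), and 4139 were modulated (22.3%), 1778 higher (9.57%) and 2361 lower (12.7%), so these 2 sets of libraries differed in more modulated genes than the 2999 found against the control. ARID1A did not pass the test between them (log2 difference 0.06, SE 0.03, adjusted p = 0.078), whereas ARID1B was higher in the libraries labelled shARID1A/B.2.3 by 0.45 on the log2 scale (SE 0.02, adjusted p = 5.8e-15).

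Among the largest differences, INHBE, IGF2, HMOX1 and CHAC1 were higher in the libraries labelled shARID1A/B.2.3. HMOX1 was at 51.9, 62.6 and 53.4 in those labelled shARID1A/B.4.2, a log2 difference of 5.34 (SE 0.11). IGF2 was at 160.3, 131 and 123 there, a log2 difference of 5.75, and CHAC1 at 79.2, 110.5 and 63.7, a log2 difference of 4.71. FAM30A, a long non-coding RNA gene, was at 14036, 14694 and 14806 against 487, 426 and 497 (log2 difference 4.95). Its log2 fold change against the control in the libraries labelled shARID1A/B.2.3 was only 0.64. In the other direction SCN3B, a beta subunit of sodium channels, was at 886, 985 and 922 against 14532, 14660.1 and 14408 (log2 difference -3.96). The serotonin receptor subunits HTR3A and HTR3B were at 8.1, 18.8 and 14.6 against 540.2, 486 and 489.8 and at 15.2, 11.5 and 10.7 against 200.4, 232 and 231. MIR7-3HG, the host gene of a microRNA, was at 13.2, 1.04 and 10.7 against 353, 299 and 299.7, and RBM24 at 26.3, 22.9 and 36 against 437, 518 and 468. HNRNPA1 was at 77234, 75378 and 73121 in the libraries labelled shARID1A/B.4.2, close to the control and far above those labelled shARID1A/B.2.3 (log2 difference -3.40, SE 0.02).

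Between these 2 sets of libraries, 30 of 34 ATF4 genes were higher and 3 lower in those labelled shARID1A/B.2.3, against 37.1% and 37.8% of all genes, with a median difference of 1.34. The cell cycle lists were lower, with 29 of 37 replication genes and 34 of 39 mitotic genes below those labelled shARID1A/B.4.2, at median differences of -0.39 and -0.49. MYCN was higher by 1.36 on the log2 scale. CCND1 was at 26111, 28612 and 27159 in the libraries labelled shARID1A/B.4.2, above those labelled shARID1A/B.2.3 (log2 difference -0.96). MHC class I genes were higher in 11 of 15 and lower in 3, with a median difference of 1.10. Against the control, 5 of these genes were higher and 4 lower in the libraries labelled shARID1A/B.2.3, at a median of only 0.0995.

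Of the other conditions, the libraries labelled shARID1A.4 differed least from those labelled shARID1A/B.2.3. This comparison was chosen after the values were seen. In the same fit 10323 genes passed the test (55.5%) and 1237 were modulated (6.66%), 732 higher (3.94%) and 505 lower (2.72%) in the libraries labelled shARID1A/B.2.3, whereas the other 4 conditions labelled as silenced gave 3507 to 4981 modulated genes against them. The median size of the log2 difference over all genes was 0.249 for shARID1A.4, 0.42 for the control and 0.462 to 0.561 for the others. HNRNPA1 was at 6516, 6444 and 6618 in the libraries labelled shARID1A.4, and its means in the other 4 such conditions were 113052, 108737, 83061 and 75244. The low value of HNRNPA1 was thus found in these 2 of the 7 conditions. TIMP2 was likewise low at 2093, 2140.5 and 2119, and HMOX1 and IGF2 were high at 1876, 2025 and 1923 and 5999.6, 6427 and 5891, in the libraries labelled shARID1A.4. Of these genes HMOX1 and IGF2 did not pass the test between the 2 conditions (log2 differences 0.24, SE 0.11, and 0.29, SE 0.14), and the differences of HNRNPA1 and TIMP2 were 0.13 and 0.17.

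Other genes separated these 2 conditions. In the libraries labelled shARID1A/B.2.3 ARID1A was the higher, with a log2 difference of 1.33 (SE 0.03, adjusted p = 2.4e-21). MYCN was at 416868, 426869.8 and 410526 in the libraries labelled shARID1A.4, above those labelled shARID1A/B.2.3 (log2 difference -0.94). ADAMTS9 was at 1329, 1167 and 1228 there and so lower than in the libraries labelled shARID1A/B.2.3 (log2 difference 1.67), as were CCN2 (2.08), ANKRD1 (1.82), COL6A3 (1.64) and LOXL2 (1.19). NPTX1 was at 2493, 2658 and 2579 in the libraries labelled shARID1A.4, well above the 446, 462 and 444 of those labelled shARID1A/B.2.3. CCND1 did not pass the test between them (0.02, SE 0.03), and CDK2 did not either (-0.06, SE 0.03).

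**Figure D3:**
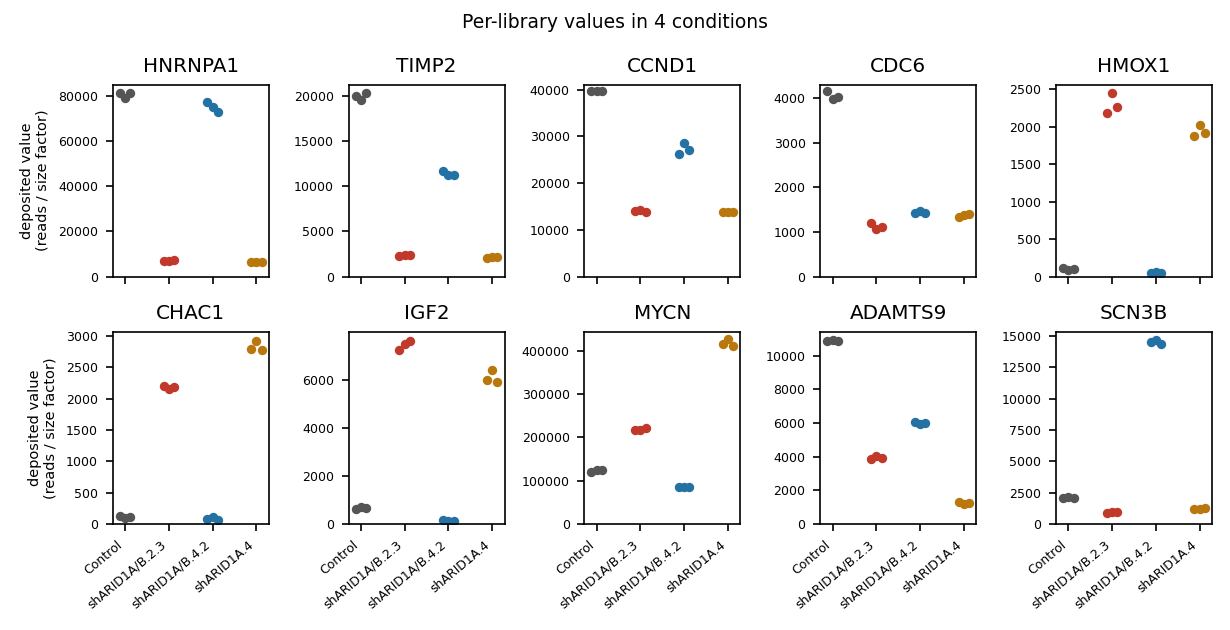
Deposited values per library of 10 genes in the control and in the libraries labelled shARID1A/B.2.3, shARID1A/B.4.2 and shARID1A.4, with 1 point per library and each axis starting at 0. HNRNPA1, TIMP2, HMOX1 and IGF2 lie close together in the libraries labelled shARID1A/B.2.3 and shARID1A.4, CHAC1 is somewhat higher in the latter, and MYCN and ADAMTS9 lie apart in these 2 conditions.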

How the data were processed

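RNA-Seq libraries had been prepared with a stranded poly(A) kit and sequenced on an Illumina NovaSeq 6000, per the labels and methods of the study. The submitters' processing notes name STAR 2.5.3a, RSEM 1.3.0, DESeq2 1.26.0 and GRCh38, without order. The deposited values are a signal, reads divided by 1 size factor per library (0.8514 to 1.2945), and whole reads were recovered for 99.9884% to 100% of values per library within 0.02 read. Tables of the authors' own comparisons, with fold changes and p-values, were not used.

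Genes were kept by edgeR's filter in 7 conditions. The main test was limma 3.58.1 with a trend on log2(value + 1) over 21 libraries, with Benjamini-Hochberg adjustment. As the pseudocount is 1, fold changes of low genes are understated. edgeR 4.0.16 and DESeq2 1.42.0 (R 4.3.3) were run on the recovered reads of 19 libraries. Left out were shARID1A.4 replicate 3 and shARID1B.3 replicate 1, whose size factors are too close to 1 for the check of whole reads. In these 2 programs the comparison with shARID1A.4 thus rests on fewer libraries. In simulated data for the comparison with control (18584 genes), limma recovered 200 of 200 changed genes, with 8 false calls. In the deposited libraries 12862 genes passed, and recovery with that many changed genes was not tested. Whether genes of low level or with small fold changes would be recovered was not tested either.

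Libraries were grouped by their titles. Replicates differed by more than sampling noise (chi-square per degree of freedom 1.866 to 2.579). Named genes were ARID1A, ARID1B, CCND1, CDKN1A and MYCN, 1 further gene that is not reported here, the 15 largest rises and falls among modulated, non-overlapping genes with a mean of at least 100, the 4 largest changes per list, and the 5 largest differences each way from shARID1A/B.4.2. Other genes named were chosen after their values were seen. The members, lists and tests were chosen with earlier results of these data known. Coordinates are from GENCODE 29 (58541 of 60728 identifiers matched without version) and promoters from RefSeq GRCh38.p14. The sequences of the shRNAs were not used here. Alternatives were another test, filter, pseudocount, scaling, set of libraries, a replicate block and leaving out each library.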

Additional observations from a re-analysis of the deposited data

Results flagged for a closer look

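Of 163 named genes, 16 were modulated in opposite directions against the control in the libraries labelled shARID1A/B.2.3 and shARID1A/B.4.2, with a direct difference that passed limma's test. Over all 18584 genes tested there were 147 such genes, 62 higher and 85 lower in the libraries labelled shARID1A/B.2.3. Both sets of libraries were set against the same control libraries. Opposite modulation already implies a large direct difference, so the test of that difference adds little. Some named genes were picked for their large difference from shARID1A/B.4.2, so their share cannot be compared with that of all genes. The 16 named genes were chosen with the control values, although their direct differences (shARID1A/B.2.3 minus shARID1A/B.4.2, log2) do not use them. Those with the higher value in the libraries labelled shARID1A/B.2.3 were the activin subunits INHBE (6.36) and INHBA (5.05), the growth factor IGF2 (5.75), the RNA sensor TLR3 (5.87), the stress genes GDF15 (4.79) and NUPR1 (4.51), the interferon-stimulated gene IFIT2 (3.29), the MHC class I transactivator NLRC5 (3.25), DBH of noradrenaline synthesis (2.83) and the death receptor TNFRSF10B (2.13).

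Those with the lower value were the microRNA host gene MIR7-3HG (-5.51), the serotonin receptor subunits HTR3A (-5.16) and HTR3B (-4.06), RBM24 (-4.04), the sodium channel subunit SCN3B (-3.96) and INSM1 (-3.59). Among them SCN3B fell by 1.18 against the control in the libraries labelled shARID1A/B.2.3 and rose by 2.79 in those labelled shARID1A/B.4.2. INSM1 and MIR7-3HG were low in all 6 libraries of the comparison with control, and INSM1 overlapped between the groups. The change of MIR7-3HG against the control was -1.34 and went to -0.46 without shARID1A/B.2.3 replicate 2, and its call was lost when only the 6 libraries were fitted.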

How the results depend on the processing

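ARID1A and ARID1B kept their direction and their call in all 16 alternatives. The number of modulated genes against the control was 2999, and it moved by over 1.5 times only when 10 reads were asked of every library (1814 of 14637 genes tested, 680 of them higher). That filter also gave 2524 modulated genes against shARID1A/B.4.2, 1225 of them lower, and 565 against shARID1A.4, 161 lower and 404 higher. A pseudocount of 5 gave 821 against shARID1A.4, 267 of them lower. Both settings lower the number of low genes that can pass the fold. Leaving out 1 library at a time gave 2924 to 2979 modulated genes against the control, and 12309 to 12364 that passed. With the replicate number as a block 3000 were modulated, 2986 of them shared with the 2999. Same-numbered libraries deviated together with correlations of 0.0461, 0.101 and -0.0233, so the numbers were not taken to pair them, and not every library correlated best with its own number. The median of the TGF-beta list was 0.0171 with upper-quartile scaling against -0.0566, and that of the Schwann cell markers 0.302 with 10 reads in every library against -0.425. Without the filter on low genes the medians of the integrin and channel lists were -0.54 and 0.23, and with upper-quartile scaling that of the adrenergic factors was -0.05. The median of the histone list was -0.03, and it ranged from -0.41 without the filter to 0.55 with 10 reads in every library. The cause was not tested. Of 163 named genes, 10 lost their call against the control in at least 1 alternative, among them CDKN2B, COL28A1, INSM1, EDNRB, EDN1, EPHA7, H2AC18, ERBB3 and MIR7-3HG, and none reversed. Precision at low values is limited by depth, and each group has 3 libraries of 1 cell line.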

Other observations

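Some genes were at 0 in all 3 control libraries and were read in all 3 libraries labelled shARID1A/B.2.3. They were chosen after their values were seen, and with 0 reads in the control no fold is given. KLHDC7B, a kelch domain gene, had values of 26.3, 26.1 and 41.8 in those libraries and passed limma's test (adjusted p = 1.4e-09). MIOX, the oxygenase that breaks down myo-inositol, had values of 14.2, 9.38 and 20.4 (adjusted p = 4.7e-07). The long non-coding RNA gene LINC02806 had values of 10.1, 7.29 and 13.6. In the other direction the chemokine gene CCL28 had values of 10.6, 4.48 and 5.14 in the control and was at 0 in all 3 libraries labelled shARID1A/B.2.3 (adjusted p = 1.4e-05). KLHDC7B was also read in the 3 libraries labelled shARID1A.4, at 28.2, 58.3 and 38.9, and at 0.91, 0.77 and 0.94 in those labelled shARID1A/B.4.2.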
